A study of Mus musculus with 16 samples.

Results

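Cell cycle genes were followed in macrophages sorted from mouse pancreatic tumors and from normal pancreas. The set holds 54 genes, picked by name for their place in the cycle, with earlier results of these data known. It has 3 roles: G1 entry and its brakes (7 genes), S phase (15) and G2 and mitosis (32). Each was matched to the gene name that the array files give, and the brightest probe of a gene was used. Of the 54 genes, 53 were tested among 24278 genes in all. The 1 probe of Ccne2, a cyclin of the G1 to S transition, was well above background on 0 of 16 arrays.

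The 16 single-color Agilent arrays form 4 groups, with 5 arrays each for YFP+ and YFP- macrophages of tumors and 3 arrays each for the same populations of normal pancreas. All mice are labelled female, of strain C57/B6 and 8 to 10 weeks old, and the genotype is marked as not provided. The design text names wild-type, KPC and FLT3-CRE/LSL-YFP mice without saying which sample came from which, and the protocol states that tumors were implanted. In such a reporter the Flt3 gene, active in multipotent precursors of the blood, drives a Cre that turns YFP on for good. YFP+ macrophages then descend from cells that once expressed Flt3, and YFP- macrophages bear no such mark. The sample titles carry 8 numbers, each shared by 1 YFP+ and 1 YFP- array. They are called mouse numbers here, although the labels do not say what they stand for, and p-values measure only the spread between these samples.

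Values are log2 processed signals minus the 75th percentile of their array, so that 0 marks that percentile, and differences are on the log2 scale. The 75th percentile ran from 2171 to 3386 intensity units, and 64.9% to 75.4% of the spots on an array lay well above background. All 12 macrophage markers were well above background on every array. Of the 53 genes tested, 42 were well above background on all 16 arrays. The number of arrays limits the precision, with a median standard error over all genes of 0.27 for YFP+ against YFP- in tumor, 0.35 for the same in normal pancreas and 0.31 for tumor against normal. Probes of 5 genes (Ccnd3, Mcm7, Pcna, Rrm2 and Ccnb1) are placed by the files on another chromosome than the gene itself. A copy of the gene elsewhere in the genome could add to their signal, so these 5 are uncertain in identity, and its part was not tested. For Ccnd3 and Ccnb1 a dimmer probe on the gene's own chromosome is also given below.

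D-type cyclins carry growth signals into the cell cycle, and cyclin E with Cdk2 and the E2F factors opens S phase. The MCM helicase then unwinds DNA, and ribonucleotide reductase supplies the deoxynucleotides. Cyclins A and B with Cdk1, driven by the factor Foxm1, lead into mitosis, where kinesins and checkpoint kinases sort the chromosomes. The inhibitor Cdkn1a (p21) halts the cycle. Tissue macrophages can renew themselves by local division, whereas macrophages that come from monocytes arrive from the blood, which is why S phase and mitosis were followed separately.

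Genes of S phase and of mitosis are known to be switched by different promoter elements. E2F sites serve the G1 to S wave. CCAAT boxes with a CHR (cell cycle genes homology region) serve the later wave. RefSeq promoters (build GRCm38.p6) were at hand for 43 of the 54 genes, and these motifs were searched on both strands. The CHR was taken as TTTGAA or TTCGAA, the CCAAT box as CCAAT, and the E2F core as any of the 7-base words TTCCCGC and TTCGCGC, with the further forms TTGCCGC and also TTGGCGC. The sequences below run from 100 bases before the start site to 30 after it, 5′ to 3′ in the gene's direction, with every such motif in capitals. They were chosen, with the motifs in view, to show a mitotic layout (Bub1, Ccnb2, Cdk1 and Prc1) beside an S phase promoter with E2F cores (Mcm6).
Bub1, chr2:127831830-127831959, minus strand: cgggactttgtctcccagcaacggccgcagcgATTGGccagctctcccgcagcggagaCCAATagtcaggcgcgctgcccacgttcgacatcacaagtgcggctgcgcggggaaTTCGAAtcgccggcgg
Ccnb2, chr9:70421525-70421654, minus strand: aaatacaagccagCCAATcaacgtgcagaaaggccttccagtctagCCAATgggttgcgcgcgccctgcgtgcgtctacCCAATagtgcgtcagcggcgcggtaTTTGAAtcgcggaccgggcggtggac
Cdk1, chr10:69352883-69353012, minus strand: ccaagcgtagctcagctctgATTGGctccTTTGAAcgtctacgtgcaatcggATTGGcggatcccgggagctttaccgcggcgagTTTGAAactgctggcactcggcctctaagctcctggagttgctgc
Prc1, chr7:80294351-80294480, plus strand: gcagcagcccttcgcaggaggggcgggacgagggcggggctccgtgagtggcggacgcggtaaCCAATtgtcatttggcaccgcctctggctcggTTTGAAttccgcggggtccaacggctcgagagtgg
Mcm6, chr1:128359676-128359805, minus strand: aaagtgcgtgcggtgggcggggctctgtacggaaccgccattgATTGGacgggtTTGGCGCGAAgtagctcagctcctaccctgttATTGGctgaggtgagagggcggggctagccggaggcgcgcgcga

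In these lines a CHR stands near the start site of all 4 mitotic genes, with 1 or more CCAAT boxes before it. The Cdk1 line holds a further CHR between its 2 CCAAT boxes. Mcm6 holds overlapping E2F cores, read on opposite strands, between a pair of CCAAT boxes. In the 250 bases before the start, 22 of the 26 mitotic promoters at hand held a CCAAT box, as did 9 of 13 S phase promoters and 0 of 4 G1 promoters, against 34.5% of 27025 promoters. An E2F core was found in 7 of 13 S phase and 4 of 26 mitotic promoters, against 7.97% of all. A CHR was found in 10 of 26 mitotic and 2 of 13 S phase promoters, against 17.4% of all. With the 50 bases after the start site included, 21 of 26 mitotic promoters held a CHR, against 19.4% of all. A match is a description of letters and does not show that a factor is bound.

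Between YFP+ and YFP- macrophages of the tumor no difference in a cell cycle gene was called. Of the 53 genes, 0 passed an adjusted p of 0.05 (limma with Benjamini-Hochberg adjustment over all 24278 genes), while 2.38% of all genes did. At an unadjusted p under 0.05 there was 1 gene, against 10.3% of all. The median difference, YFP+ minus YFP-, was 0.0362 over the 53 genes (0.00659 over all genes), with 0.14 for G1 genes, -0.0756 for S phase and 0.20 for mitosis. The YFP+ value was higher in 31 of 53 genes, against 50.8% of all. It was higher in 24 of 32 mitotic genes and lower in 12 of 15 S phase genes. Among mitotic genes the differences of greatest size were those of Tpx2, a spindle assembly factor (0.85 ± 0.40, SE here and below, adjusted p = 0.488), and Ttk, the checkpoint kinase Mps1 (0.74 ± 0.70, adjusted p = 0.823), which was well above background on only 2 of 5 tumor YFP- arrays. In the other roles they were Ccnd3, a D-type cyclin (0.33 ± 0.19, adjusted p = 0.625), Ccnd2 (0.31 ± 0.24, adjusted p = 0.759), Uhrf1, which helps to copy DNA methylation (-0.29 ± 0.39, adjusted p = 0.890), and Mcm6 (-0.26 ± 0.32, adjusted p = 0.874). None of these differences passed the test.

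**Figure D1:**
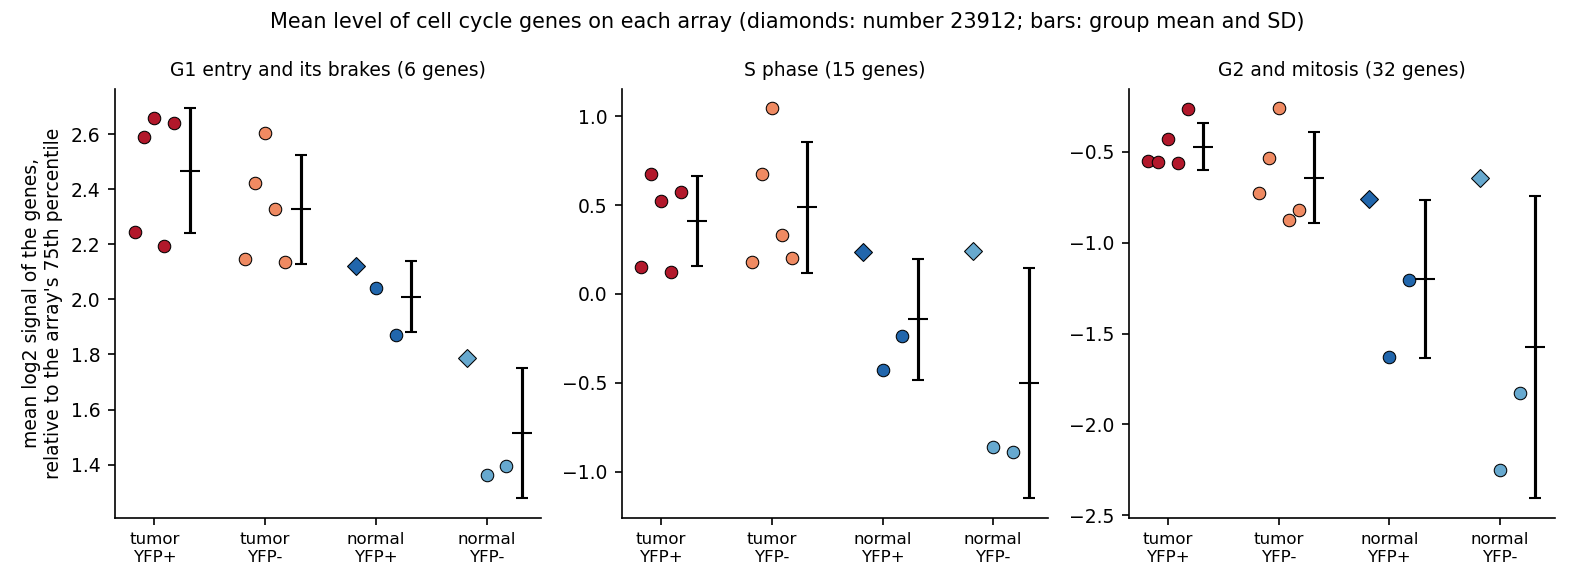
Each point is the mean log2 signal, relative to the array's 75th percentile, of the genes of 1 role on 1 array, for the 4 groups on the horizontal axis. Diamonds mark mouse number 23912 and bars give the group mean and SD; the normal YFP- array of that mouse (S phase 0.24, mitosis -0.65) stands well above the other normal YFP- arrays.

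In normal pancreas most cell cycle genes read higher in YFP+ macrophages, but 0 of 53 passed the threshold, which only 0.0206% of all genes did. At an unadjusted p under 0.05 there were 7 genes, all higher in YFP+ cells, against 7.63% of all genes. The median difference was 0.33, while that over all genes was -0.11, and 44 of 53 genes lay above 0 against 39.1% of all genes. The members of greatest size were Kif2c, a kinesin that takes microtubules apart (1.64 ± 0.94, adjusted p = 0.755), and Bub1b, the checkpoint kinase BubR1 (1.19 ± 0.39, adjusted p = 0.368). In S phase they were Rrm2, the regulated subunit of ribonucleotide reductase (1.56 ± 0.44, adjusted p = 0.236), and Cdc6, which loads the MCM helicase (0.86 ± 0.54, adjusted p = 0.783), well above background on 2 of 3 YFP+ and 1 of 3 YFP- arrays. In G1 they were Ccnd3 (0.75 ± 0.24, adjusted p = 0.336) and Cdkn1a (0.74 ± 0.17, adjusted p = 0.147). Kif2c was well above background on 2 of 3 YFP- arrays. Dimmer probes of Kif2c and Cdkn1a had the opposite sign (-0.14 and -0.63), while those of Ccnd3 and Cdc6 gave 0.88 and 0.81. Leaving out both arrays of mouse 23912 brought 2 genes past the threshold, Bub1b and Rrm2, but both normal YFP- arrays of Bub1b then left were not well above background. Leaving out only its YFP- array brought 6 past it, and weighting arrays by their estimated quality brought 12. The weight was 4.71 for the normal YFP- array of 23916, against 0.66 for that of 23917 and 0.41 for that of 23912. The weighted normal YFP- mean thus rests largely on 1 array.

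These YFP differences were set against each other in an interaction test, which 0 of 53 genes passed, against 0.0989% of all genes. At an unadjusted p under 0.05 there were 3 genes, against 5.95% of all. The median interaction, the difference in tumor minus the difference in normal pancreas, was -0.27, and 8 of 53 genes lay above 0, against 54.9% of all. The largest in size were Kif2c (-1.93 ± 1.18, adjusted p = 0.901) and Tpx2 (1.66 ± 0.65, adjusted p = 0.727). In S phase they were Rrm2 (-1.43 ± 0.55, adjusted p = 0.709) and Cdc6 (-1.08 ± 0.69, adjusted p = 0.913), and in G1 they were Cdkn1a (-0.63 ± 0.22, adjusted p = 0.575) and Ccnd3 (-0.43 ± 0.30, adjusted p = 0.921). Dimmer probes of Kif2c and Cdkn1a had the opposite sign (1.55 and 1.17), while those of Cdc6 and Ccnd3 gave -0.89 and -0.43. Rrm2 passed the threshold in 3 of 20 other settings: without mouse 23912, without only its normal YFP- array, and with array weights. With those weights the normal YFP- mean rests largely on the array of mouse 23916. The comparisons share groups, so no likeness between them is read as a result.

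Between tumor and normal pancreas the cell cycle genes that passed the test were all higher in the tumor samples. In YFP+ cells 9 of 53 genes rose and 0 fell, against 12.3% of all genes called (5.79% higher). In YFP- cells 20 of 53 rose and 0 fell, against 16.1% of all genes called (7.6% higher). The medians were 0.71 in YFP+ and 0.94 in YFP- cells, while those over all genes were -0.0676 and -0.19. Above 0 lay 48 genes in YFP+ cells (44.2% of all) and 47 in YFP- cells (38.8% of all). An unadjusted p under 0.05 was reached by 21 genes in the former (24.1% of all) and by 36 in the latter (30.5% of all). By role the medians in YFP+ cells were 0.54 for G1 (3 of 6 called), 0.51 for S phase (2 of 15) and 0.75 for mitosis (4 of 32). In YFP- cells they were 0.92 for G1 (3 of 6), 0.92 for S phase (4 of 15) and 0.95 for mitosis (13 of 32). All 9 genes called in YFP+ cells were also among the 20 called in YFP- cells. Groups that did not overlap, with every tumor array higher, were found for 16 genes in YFP+ cells (9.58% of all genes) and for 16 in YFP- cells (9.13% of all genes).

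These counts depended on single mice. In YFP+ cells the 9 calls became 20 without mouse 23912, 4 without 23547 or 23548, 3 without 23550, 23551, 23677 or 23916, and 1 without 23917. In YFP- cells the 20 calls became 36 without 23912, 11 without 23550, and 9 without 23916 or 23917. Without the single normal YFP- array of 23912 they were 14 in YFP+ and 36 in YFP- cells. The share of all genes called in such altered settings is not given, here or elsewhere. A change in these counts is thus not read as particular to the cell cycle genes.

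**Figure D2:**
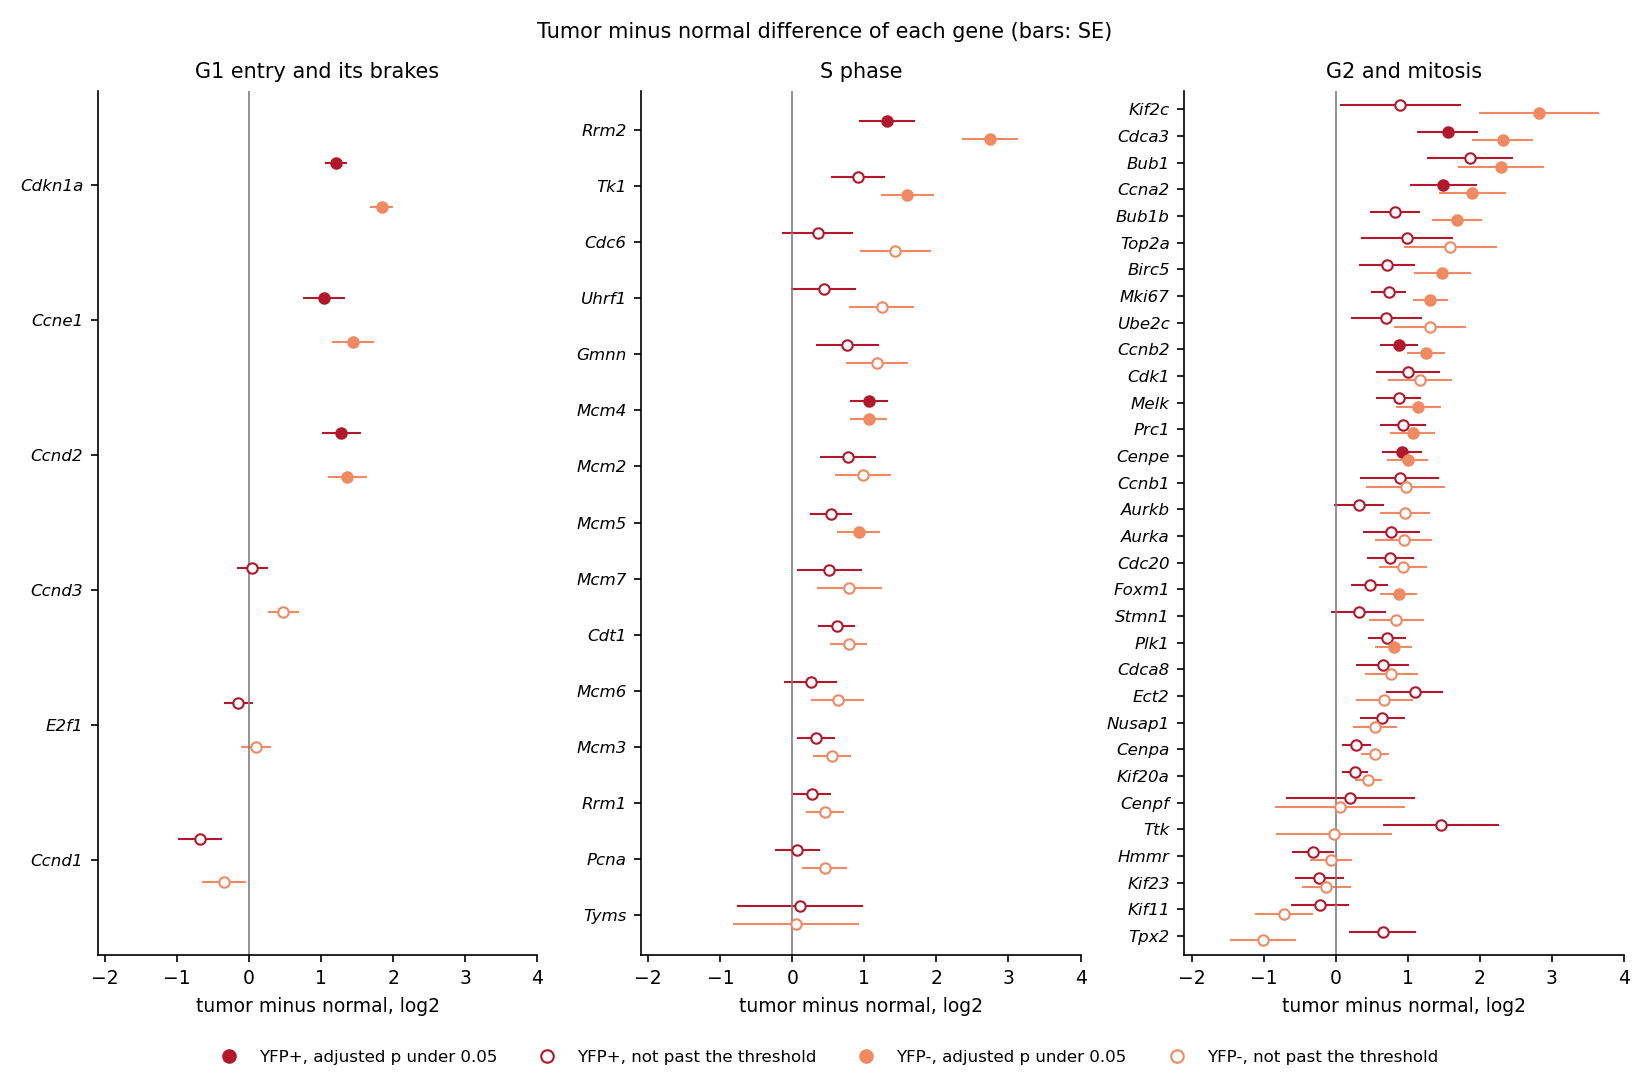
Points give the log2 difference, tumor minus normal, of each tested gene in YFP+ (dark) and YFP- cells (light), with bars for the standard error and filled points past an adjusted p of 0.05, by role. In YFP- cells 47 of the 53 points lie above 0 and 20 are filled, while Ccnd1 lies below 0 in both.

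At G1 entry Ccnd2 was the 1 of 3 D-type cyclins to pass the test. Ccnd2, which answers growth factors, read 4.14, 4.47, 4.65, 4.62 and 4.65 in tumor YFP+ cells and 4.04, 4.35, 4.37, 4.23 and 3.96 in tumor YFP- cells. In normal pancreas it read 3.82, 3.12 and 2.73 in YFP+ and 3.53, 2.37 and 2.57 in YFP- cells (arrays in the order of the mouse numbers, here and below). All tumor arrays thus lay above all normal ones, and Ccnd2 rose 2.43-fold in YFP+ (1.28 ± 0.27, adjusted p = 0.00607) and 2.58-fold in YFP- cells (1.37 ± 0.27, adjusted p = 0.00353). Ccnd1, its close relative, read 1.19, 2.26, 2.45, 1.22 and 2.23 in tumor YFP+ and 1.44, 1.96, 2.53, 1.82 and 1.94 in tumor YFP- cells. It read 2.73, 2.57 and 2.36 in normal YFP+ and 2.29, 2.26 and 2.30 in normal YFP- cells. Its groups overlapped, and differences of -0.68 ± 0.31 (adjusted p = 0.185) in YFP+ and, for YFP- cells, -0.34 ± 0.31 (adjusted p = 0.463) did not pass. Ccnd3 differed by 0.05 ± 0.21 (adjusted p = 0.941) and 0.47 ± 0.21 (adjusted p = 0.149), and the first of these turned negative under 5 other settings. A dimmer probe of Ccnd3, on the gene's own chromosome 17, gave 0.07 and 0.50.

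Ccne1, the cyclin E that opens S phase, read 0.15, 0.10, 0.09, -0.0039 and 0.41 in tumor YFP+ cells and -0.58, -1.22 and -0.87 in normal YFP+ cells. In YFP- cells it read -0.14, -0.21, 0.40, -0.0043 and -0.17 in tumor and -0.53, -1.74 and -2.15 in normal pancreas. No tumor array fell as low as a normal one, and Ccne1 rose in YFP+ (1.04 ± 0.29, adjusted p = 0.0299) and YFP- cells (1.45 ± 0.29, adjusted p = 0.00355). E2f1, an E2F factor that acts on S phase genes, differed by -0.15 ± 0.20 (adjusted p = 0.746) and 0.09 ± 0.20 (adjusted p = 0.780).

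The brake Cdkn1a rose and had the smallest adjusted p of the 53 genes in both tissue comparisons. It read 4.22, 4.60, 4.50, 4.36 and 4.58 in tumor YFP+ and 4.33, 4.48, 4.17, 4.55 and 4.22 in tumor YFP- cells. In normal pancreas it read 3.19, 3.49 and 3.07 in YFP+ and 2.40, 2.56 and 2.58 in YFP- cells. The 4 groups were tight and every tumor array lay above every normal one, with a rise of 2.30-fold in YFP+ (1.20 ± 0.15, adjusted p = 0.000132) and 3.58-fold in YFP- cells (1.84 ± 0.15, adjusted p = 2.21e-06). Mouse 23912 did not stand apart for this gene. These values come from the bright probe at chr17:29237377-29237436 (mm9). A dimmer probe of the gene, at chr17:29227986-29228045, went the other way in YFP- cells (-0.85) and gave 0.32 in YFP+ cells. Their mean gave 0.76 (adjusted p = 0.147) and 0.49 (adjusted p = 0.304), so the call rests on the bright probe. Of the 29 calls in the tissue comparisons, 8 were of genes with several probes, and this was the 1 with a probe of opposite sign. In YFP- cells dimmer probes gave far less than the call for Foxm1 (0.18 against 0.88) and Kif2c (0.09 against 2.83). That of Kif2c was well above background on only 7 arrays. Dimmer probes gave 2.29 for Ccne1, 1.19 for Mki67, and 1.24 and 1.28 for Birc5.

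**Figure D3:**
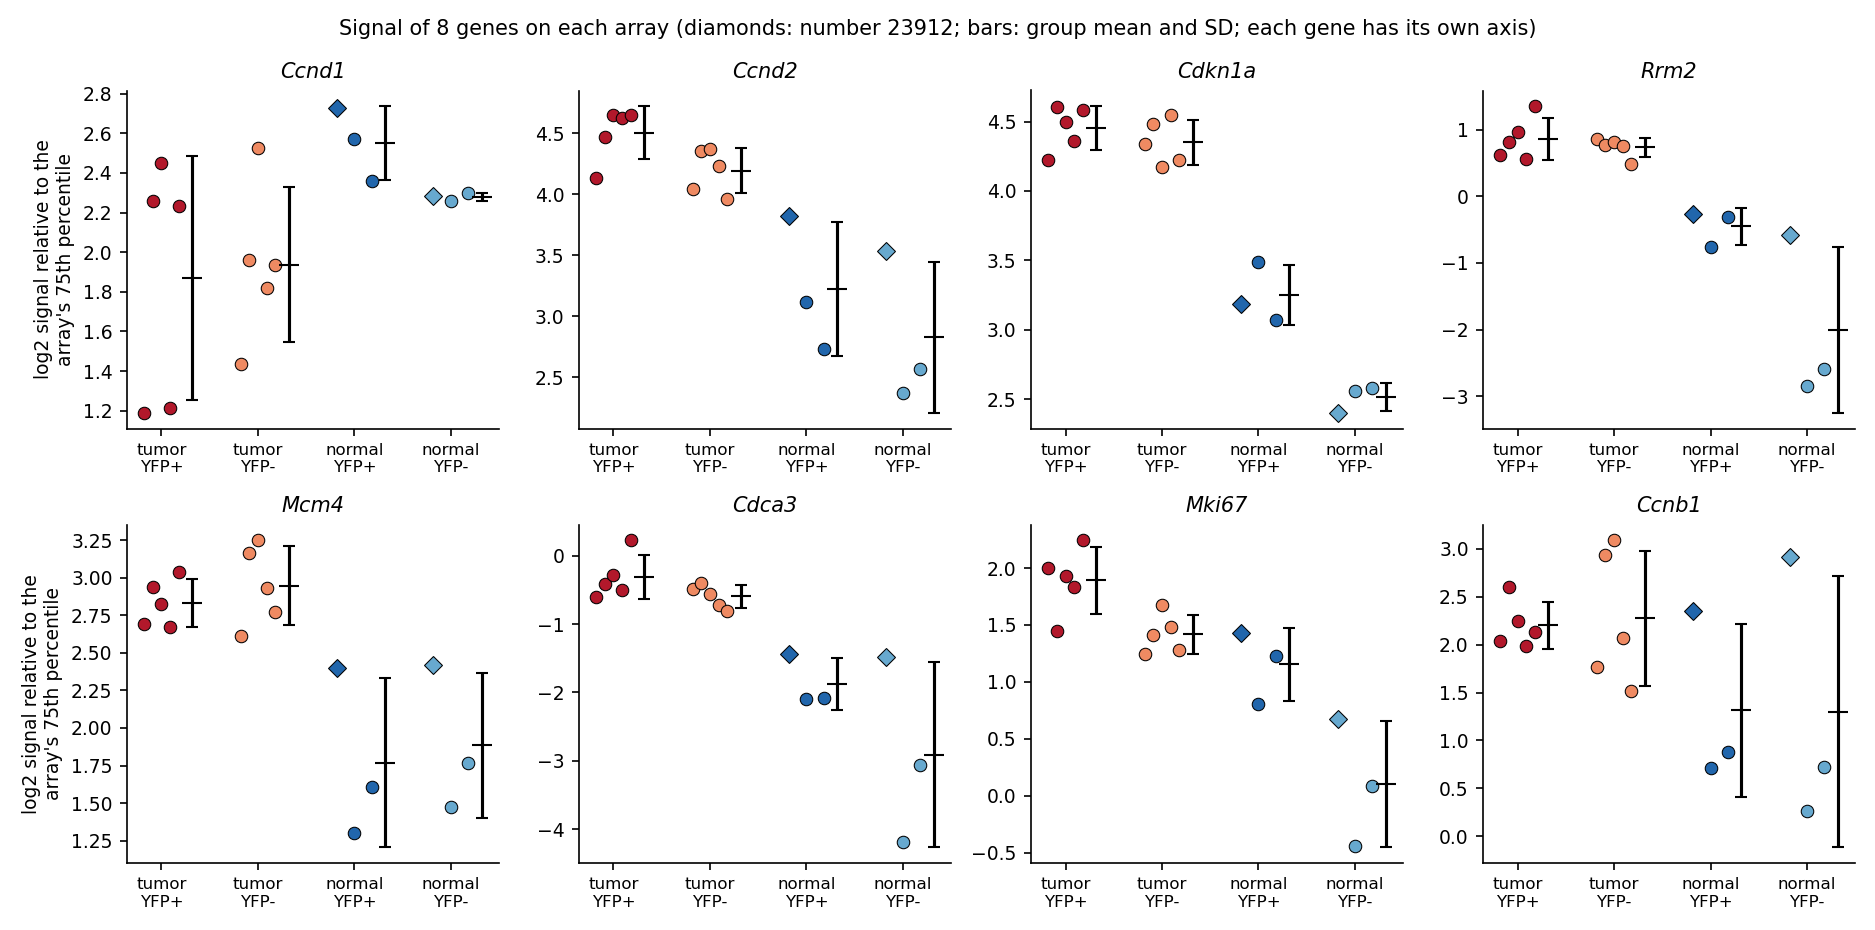
Each point is the log2 signal of 1 gene on 1 array, relative to the array's 75th percentile, for 8 genes with an axis each; diamonds mark mouse 23912 and bars give the group mean and SD. For Cdkn1a and Rrm2 all tumor arrays lie above all normal ones, while for Ccnb1 both arrays of mouse 23912 lie among the tumor values.

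In S phase the subunit Rrm2, through which cells limit their supply of deoxynucleotides, rose most. It read 0.62, 0.82, 0.96, 0.56 and 1.36 in tumor YFP+ and 0.86, 0.77, 0.82, 0.75 and 0.49 in tumor YFP- cells. In normal pancreas it read -0.27, -0.77 and -0.31 in YFP+ and -0.57, -2.85 and -2.60 in YFP- cells. No tumor array came down to a normal one, and the rise was 2.49-fold in YFP+ (1.31 ± 0.39, adjusted p = 0.0398) and 6.70-fold in YFP- cells (2.74 ± 0.39, adjusted p = 0.000245). The probe of Rrm2 lies on chromosome 19 (chr19:35175128-35175187, mm9) by the files, whereas the gene is on chromosome 12.

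Of the 6 MCM helicase subunits Mcm2 to Mcm7, Mcm4 was called in both populations. It read 2.69, 2.94, 2.82, 2.67 and 3.04 in tumor YFP+ cells, and in those of normal pancreas it read 2.40, 1.30 and 1.61. It read 2.62, 3.16, 3.25, 2.93 and 2.77 in tumor YFP- cells, and in those of normal pancreas it read 2.42, 1.47 and 1.76. The tumor arrays lay above the normal ones in each population, with differences of 1.06 ± 0.26 in both (adjusted p = 0.0138 and 0.0119). Mcm5 rose in YFP- cells (0.92 ± 0.29, adjusted p = 0.0454), a call that held in 10 of 20 other settings, and in YFP+ cells it gave 0.53 ± 0.29 (adjusted p = 0.299). Mcm2 gave 0.78 ± 0.39 (adjusted p = 0.245) and 0.99 ± 0.39 (adjusted p = 0.102). Tk1, a thymidine kinase that salvages a DNA building block, rose in YFP- cells (1.59 ± 0.37, adjusted p = 0.00868) and gave 0.91 ± 0.37 (adjusted p = 0.137) in YFP+ cells. Pcna, the sliding clamp of DNA polymerase, gave 0.07 ± 0.32 (adjusted p = 0.938) and 0.45 ± 0.32 (adjusted p = 0.354). All 15 S phase genes lay above 0 in both comparisons, from 0.07 to 1.31 in YFP+ and from 0.04 to 2.74 in YFP- cells.

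In mitosis the largest called rise common to both populations was that of Cdca3, which helps to destroy the mitosis inhibitor Wee1. It read -0.60, -0.41, -0.28, -0.50 and 0.23 in tumor YFP+ cells, and in those of normal pancreas it read -1.43, -2.09 and -2.09. It read -0.48, -0.39, -0.56, -0.72 and -0.80 in tumor YFP- cells, and in those of normal pancreas it read -1.49, -4.19 and -3.05. The groups did not overlap, and Cdca3 rose 2.94-fold in YFP+ (1.56 ± 0.42, adjusted p = 0.0254) and 4.99-fold in YFP- cells (2.32 ± 0.42, adjusted p = 0.00174). Cyclins Ccna2 and Ccnb2, partners of Cdk1, and Cenpe, a kinesin of the kinetochore, were called in both populations too. Ccna2 rose by 1.497 ± 0.47 (adjusted p = 0.0496) and 1.90 ± 0.47 (adjusted p = 0.0123), Ccnb2 by 0.88 ± 0.27 (adjusted p = 0.0441) and 1.25 ± 0.27 (adjusted p = 0.00499). Cenpe rose by 0.93 ± 0.28 (adjusted p = 0.0424) and 0.998 ± 0.28 (adjusted p = 0.0247). For Ccna2, Bub1, Bub1b and Top2a only 1 of the 3 normal YFP- arrays was well above background, so the low side of these differences is poorly measured.

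Mki67, which coats mitotic chromosomes and is the usual stain for dividing cells, had its highest group mean in tumor YFP+ cells. It read 2.003, 1.45, 1.93, 1.83 and 2.25 in tumor YFP+ and 1.25, 1.41, 1.67, 1.48 and 1.28 in tumor YFP- cells. In normal pancreas it read 1.43, 0.80 and 1.22 in YFP+ and 0.67, -0.44 and 0.08 in YFP- cells. Its group means ran from tumor YFP+ down through tumor YFP- and normal YFP+ to normal YFP-. The tumor populations overlapped, and so did tumor YFP- and normal YFP+ cells. YFP+ minus YFP- was 0.47 in tumor and 1.05 in normal pancreas, and neither difference passed the test. A dimmer probe of Mki67 gave 0.16 and 0.69. The order by YFP is thus a description only. Between tissues Mki67 rose 2.49-fold in YFP- cells (1.32 ± 0.24, adjusted p = 0.00198), and in YFP+ cells the difference of 0.74 ± 0.24 (adjusted p = 0.0655) did not pass.

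The other mitotic genes called in YFP- cells were the checkpoint kinases Bub1 (2.29 ± 0.60) and Bub1b (1.68 ± 0.35), the kinesin Kif2c (2.83 ± 0.84), the survivin gene Birc5 (1.48 ± 0.39), the kinases Melk (1.14 ± 0.31) and Plk1 (0.81 ± 0.26), the spindle protein Prc1 (1.07 ± 0.32) and the mitotic transcription factor Foxm1 (0.88 ± 0.26). Their adjusted p-values ran from 0.00434 (Bub1b) to 0.0474 (Plk1). Kif2c rests on 1 array, which read -7.06 in the normal YFP- cells of mouse 23916 against -1.79 and -2.61 in the others, and without that mouse it gave 1.21 (adjusted p = 0.0923). In YFP+ cells the same 8 genes gave 0.47 to 1.87 and none passed, with adjusted p from 0.0568 (Bub1) to 0.595 (Kif2c). Whether the effect of tissue differed between the populations is the interaction above, which 0 genes passed.

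Several of the best known mitotic genes did not pass. Ccnb1 read 2.04, 2.60, 2.25, 1.99 and 2.14 in tumor YFP+ and 1.77, 2.93, 3.09, 2.06 and 1.52 in tumor YFP- cells. In normal pancreas it read 2.35, 0.71 and 0.88 in YFP+ and 2.92, 0.26 and 0.73 in YFP- cells. Mouse 23912 lay among the tumor arrays in both, and differences of 0.89 ± 0.55 (adjusted p = 0.374) and 0.97 ± 0.55 (adjusted p = 0.249) did not pass. The bright probe behind these Ccnb1 values lies on chromosome 7 by the files, whereas the gene is on chromosome 13. A dimmer Ccnb1 probe on chromosome 13, well above background on 16 arrays, gave larger differences, 1.11 in YFP+ and 1.72 in YFP- cells. Cdk1 gave 1.01 ± 0.45 (adjusted p = 0.182) and 1.17 ± 0.45 (adjusted p = 0.0928). A dimmer probe of Cdk1 gave 0.16 and -0.41, while a further probe gave 1.01 and 1.02. Top2a, the topoisomerase that untangles chromosomes, gave 0.99 ± 0.64 (adjusted p = 0.395) and 1.59 ± 0.64 (adjusted p = 0.107). Without mouse 23912 the YFP- differences were 1.78 for Ccnb1 (adjusted p = 0.00755) and 1.80 for Cdk1 (adjusted p = 0.00375). For Top2a both normal YFP- arrays then left were not well above background, so its difference is not given. Over the 32 mitotic genes the differences ran from -0.32 to 1.87 in YFP+ and from -1.004 to 2.83 in YFP- cells, and 27 of 32 lay above 0 in the latter.

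The S phase and mitotic means were both higher in tumor than in normal pancreas. For the 15 S phase genes the tumor mean was 0.41 ± 0.25 (SD, n = 5) in the YFP+ population and 0.49 ± 0.37 (n = 5) in the YFP- population. The mean of normal pancreas was -0.14 ± 0.34 (n = 3) in the former and -0.50 ± 0.65 (n = 3) in the latter. The mean over the 32 mitotic genes was -0.47 ± 0.13, -0.64 ± 0.25, -1.20 ± 0.43 and -1.57 ± 0.83 in the same order (tumor YFP+ first). Levels of different probes cannot be set against each other, but the gap between these means can be followed from array to array. Mitosis minus S phase was -0.88 ± 0.22, -1.13 ± 0.16, -1.05 ± 0.13 and -1.07 ± 0.28 in the same order, and the ranges of all 4 groups overlapped. No test was made on these means, since they are scores over a chosen list.

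**Figure D4:**
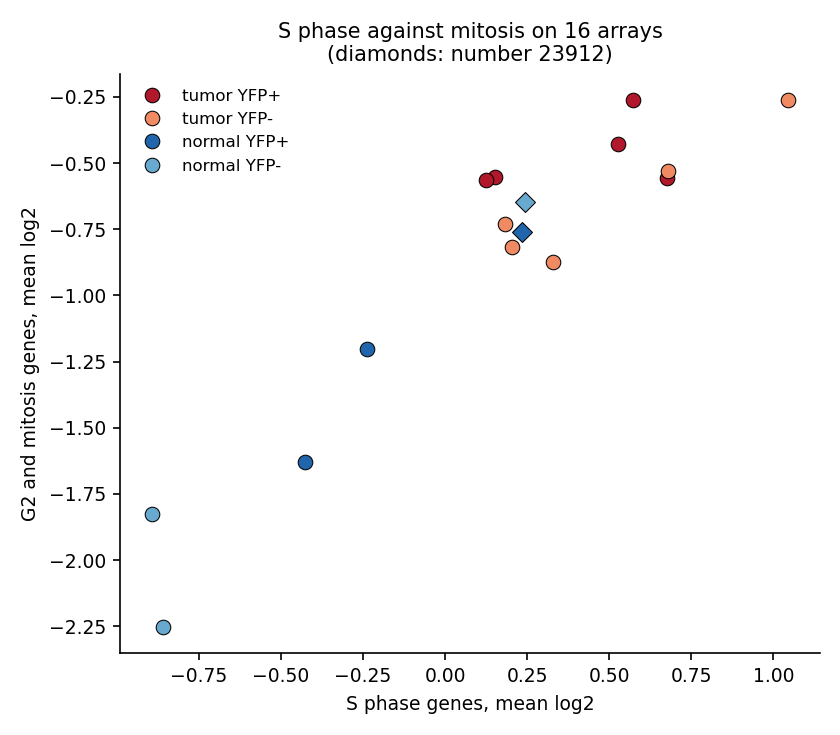
Each point is 1 array, with the mean log2 signal of the 15 S phase genes on the horizontal axis and that of the 32 mitotic genes on the vertical axis. The arrays lie along 1 diagonal, the 10 tumor arrays at its upper end and 4 of the 6 normal arrays at its lower end, with both arrays of mouse 23912 (diamonds) between or beside the tumor arrays.

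The mice with normal pancreas were not alike. The normal YFP- array of mouse 23912 read 0.24 in S phase and -0.65 in mitosis, whereas those of mice 23916 and 23917 read -0.86 and -0.89 in S phase and -2.25 and -1.83 in mitosis. It was the highest of the 3 for 45 of the 53 genes and lay within the range of the tumor YFP- arrays for 31. The YFP+ array of the same mouse was the highest of the 3 for 37 genes. Such ranks were not counted over all genes, so they are not read as particular to the cell cycle. On its YFP- array 75.4% of spots lay well above background, against 73.4% and 67.6% for mice 23916 and 23917. On its YFP+ array 69.2% did, against 71.6% and 71.5%. The mean over 7 T and NK cell markers was also highest in mouse 23912, at 0.14 on its YFP+ array against -1.52 and -1.48, and at -0.78 on its YFP- array against -2.08 and -2.32. Other lists stood apart there too: dendritic cell markers on its YFP- array (-0.81 against -2.58 and -2.71), neutrophil markers on its YFP+ array (0.75 against -0.85 and -2.75) and mast cell markers on its YFP- array (-2.30 against -3.68 and -4.26). Its macrophage means were the lowest, at 3.96 against 4.44 and 4.31 in YFP+ and 3.76 against 4.67 and 4.75 in YFP- cells. Fibroblast markers were lowest there too, at -3.38 against -1.74 and -2.13 in YFP+ and -1.99 against -0.31 and 0.88 in YFP- cells. Acinar markers were lowest on its YFP- array (5.28 against 6.05 and 6.53) but not on its YFP+ array (5.30 against 4.87 and 5.54). The part of all these cells in the result was not tested. In G1 genes no such gap was seen on the YFP+ side, where the means were 2.12, 2.04 and 1.87.

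The 4 slides each held several groups. Within a slide, tumor minus normal in YFP+ cells was 1.101, 0.34 and 0.76 for S phase and 1.07, 0.50 and 0.77 for mitosis on slides 1, 2 and 3. In YFP- cells it was 1.57, -0.0408 and 1.04 for S phase and 1.30, -0.17 and 1.52 for mitosis on slides 2, 3 and 4. The difference thus did not hold within slide 3 in YFP- cells, where the normal array is that of mouse 23912. With the slide as a block 11 genes were called in YFP+ and 19 in YFP- cells.

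RNA of other cells differed between the tissues. Acinar markers (7 tested) had a mean of 4.87 to 6.53 on the normal arrays and of -2.55 to -0.40 on the tumor arrays, and all 7 were lower in tumor in both populations. Ductal and tumor epithelial markers were the other way round. Their mean was 0.43 to 0.96 on the YFP- arrays of tumors, -1.33 to -0.42 on the YFP+ arrays of tumors and -2.93 to -1.93 on normal arrays. Plasma cell markers were higher in tumor for 4 of 6 in each population (medians 1.45 in YFP+ and 1.34 in YFP- cells), with 1 lower in YFP- cells. Neutrophil markers were called higher for 3 of 8 in YFP+ (median 0.85) and 4 of 8 in YFP- cells (median 2.27). A further 3 of 8 lay below 0 in YFP+ cells, down to -2.66, and 1 of 8 in YFP- cells. Of all genes 5.79% were called higher in YFP+ and 7.6% in YFP- cells. Mast cell and basophil markers were higher for 1 of 5 in YFP+ (median 1.81) and 5 of 5 in YFP- cells (median 5.34), and B cell markers for 2 of 6 and 1 of 6. Within tumors fibroblast markers had a mean of 0.88 to 1.54 on the YFP- side and of -3.61 to -2.47 on the YFP+ side. For mast cell markers these means were -0.0473 to 2.82 and -3.59 to -0.78. Plasma cell markers went the other way, at -0.0436 to 0.68 on the YFP- side and 1.65 to 2.29 on the YFP+ side. Of these, 2 of 6 were called higher in YFP+ cells, beside 2.38% of all genes called. All 6 B cell and all 8 dendritic cell markers also read higher in tumor YFP+ cells (50.8% of all genes), with 0 called. The mean of the 12 macrophage markers ran from 3.76 to 4.75 over the 16 arrays, a span that exceeds the tissue medians of the cell cycle genes, and it was lowest on the normal YFP- array of mouse 23912. Scaled to these 12 markers in place of the 75th percentile, an alternative chosen after the data were seen, 1 gene was called in YFP+ and 9 in YFP- cells. The part of the other cells in the cell cycle differences was not tested, and in bulk RNA fewer dividing cells and less RNA per cell cannot be told apart.

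Further genes of the cycle were read from lists that share no gene with the 54. Of 30 further DNA replication genes, 3 rose in YFP+ and 3 in YFP- cells with 0 lower, near the share of all genes that rose (5.79% and 7.6%), at medians of 0.34 and 0.36. In YFP+ cells they were Gins1, a part of the replicative helicase (0.90 ± 0.22), the DNA binding protein Rpa1 (0.62 ± 0.17) and Tipin (0.87 ± 0.25). In YFP- cells they were Mcm10 (2.30 ± 0.73), the flap nuclease Fen1 (0.86 ± 0.28) and Rpa1 (0.61 ± 0.17). Of 37 further mitotic genes 4 rose in YFP+ and 7 in YFP- cells and 0 fell, beside the same 5.79% and 7.6% of all genes, at medians of 0.36 and 0.55. The largest were Nuf2 of the kinetochore (2.58 ± 0.48), the lamin Lmnb1 (1.63 ± 0.26) and Ckap2l (1.44 ± 0.30) in YFP+ cells. In YFP- cells they were the spindle protein Dlgap5 (2.63 ± 0.46), Lmnb1 (1.996 ± 0.26) and Ckap2l (1.98 ± 0.30). In normal pancreas Mcm10 and Nuf2 were well above background on 2 of 3 arrays of the population named, and Dlgap5 on 1 of 3.

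Of 19 further G1 genes 0 rose and 1 fell in YFP+ cells, and 4 rose and 1 fell in YFP- cells, beside 12.3% and 16.1% of all genes called. The gene that fell was the inhibitor Cdkn1c (p57), by 2.63 ± 0.51 in YFP+ and by 2.26 ± 0.51 in YFP- cells. The largest rises in YFP- cells were those of the inhibitor locus Cdkn2a (3.62 ± 0.97) and the factors E2f8 (2.37 ± 0.66) and E2f2 (1.67 ± 0.39), with Cdkn2a well above background on 2 of 3 and E2f8 on 1 of 3 normal YFP- arrays. Inhibitors of the cycle thus went both ways in YFP- cells, with Cdkn2a up and Cdkn1c down. Cdkn1a was up by its bright probe, while its dimmer probe gave -0.85.

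Among 12 further genes of p53 signalling and growth arrest, 3 rose and 2 fell in YFP+ cells, and 5 rose and 1 fell in YFP- cells, beside 12.3% and 16.1% of all genes called. Gadd45a (1.38 ± 0.21 and 1.40 ± 0.21) and Btg1 (0.82 ± 0.18 and 1.30 ± 0.18) rose in both populations, while Sesn1 fell in both (-2.12 ± 0.30 and -2.04 ± 0.30). Sesn2, a stress-induced relative, rose in YFP- cells (1.05 ± 0.31). Of the 5 further lists this one held calls between the tumor populations, 2 of 12 beside 2.38% of all genes: Trp53inp1 was higher in YFP+ cells (1.71 ± 0.23, adjusted p = 0.000863) and Phlda3 lower (-1.81 ± 0.21, adjusted p = 0.000284). The same held against normal YFP+ cells, with Trp53inp1 at 1.81 ± 0.27 and Phlda3 at -1.39 ± 0.24.

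Of 10 genes that control macrophage growth, 3 rose and 2 fell in each tissue comparison, beside 12.3% (YFP+) and 16.1% (YFP-) of all genes called. Csf1, the main macrophage growth factor, rose by 2.81 ± 0.44 in YFP+ and 2.46 ± 0.44 in YFP- cells. The receptor chains Csf2rb (1.20 ± 0.15 and 1.65 ± 0.15) and Il4ra (0.88 ± 0.17 and 0.91 ± 0.17) rose as well. Maf, which restrains self-renewal of macrophages, fell by 2.21 ± 0.27 and 2.12 ± 0.27, and Klf2, a factor of quiescent cells, by 1.54 ± 0.30 and 1.02 ± 0.30.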

How the data were processed

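Per the labels' protocols, macrophages were sorted into lysis buffer, and total RNA was amplified, labelled with Cy5 and hybridised to Agilent arrays. Per the submitters' processing notes, Agilent Feature Extraction 11.5.1.1 read the arrays. The deposited scanner files hold red channel intensity values, background subtracted per the file headers. The deposited normalized table holds log2 values that the authors made by an unstated step. Its sorted columns are equal within 0.0069, as after quantile normalization.

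The intensity was scaled to each array's 75th percentile and log2 transformed. Spots marked as outliers were left out, and 0 spots were saturated. Probes well above background on at least 3 arrays were kept, which left 24278 genes. Limma 3.58.1 in R 4.3.3 (lmFit and eBayes) fitted 4 group means over all 16 arrays, with 5 two-sided contrasts. The fit was tested on simulated data. Named genes were those past the threshold, 15 fixed members, the 2 largest per role and contrast, and up to 3 called genes per further list and direction. Members and lists were chosen with earlier results of these data known. Alternatives changed the background correction, normalization, filter, probe rule, array weights, slide or number block, and the mice left out. Scaling to macrophage markers, and leaving out a single normal YFP- array, were chosen after seeing the data.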

Additional observations from a re-analysis of the deposited data

Results flagged for a closer look

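Looked at were 76 combinations of a gene, or a mean over genes, with a group of 5 tumor arrays. Of these, 3 held an array far from the other 4, and chance alone flags about 1 in 20. Foxm1 read 1.07 in the YFP+ cells of mouse 23677, against 0.43 to 0.54 on the other tumor YFP+ arrays. Melk read -1.75 in the YFP+ cells of mouse 23551, against -1.20 to -1.07. Rrm2 read 0.49 in the YFP- cells of mouse 23677, against 0.75 to 0.86. Groups of 3 arrays were not looked at in this way.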

How the results depend on the processing

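Over 112 named values and 20 alternatives, 1973 of 2240 pairs kept direction and side of the threshold, 193 lost the call, 60 gained it and 14 changed sign. No called value changed sign. Past the threshold under all 20 were 7 of the 20 YFP- tissue calls (Ccnd2, Ccne1, Mki67, Rrm2, Cdca3, Bub1b and Ccnb2) and 0 of the 9 in YFP+ cells. The causes were not tested. Array weights gave 18 and 43 tissue calls in YFP+ and YFP- cells, 12 calls of YFP+ against YFP- in normal pancreas and 1 interaction. These weights put most of the normal YFP- mean on the array of mouse 23916 (weight 4.71, against 0.66 and 0.41). Their YFP- tissue medians were 1.36 (S phase), 1.41 (mitosis) and 1.39 (all members), and their interaction medians -0.78 (S phase) and -0.65 (mitosis). Scaling to macrophage markers gave 1 and 9 tissue calls. Without a filter the G1 tissue medians were 0.0461 (YFP+) and 0.47 (YFP-), and the mean of probes gave 0.49 (YFP-). With the slide as a block the G1 interaction median was -0.14. A CHR was in 80.8% of mitotic promoters over the whole 300 bases. Leaving out arrays gave 1 to 20 tissue calls in YFP+ cells, 9 to 36 in YFP- cells, 0 to 6 between the normal populations and 0 to 1 interactions. The YFP- tissue medians then ran from 0.64 to 1.33 (S phase), 0.66 to 1.41 (mitosis) and 0.64 to 1.39 (all members). The medians between the normal populations ran from 0.43 to 0.72 (G1), 0.18 to 0.69 (S phase), 0.21 to 0.80 (mitosis) and 0.23 to 0.75 (all members). Interaction medians ran from -0.72 to -0.10 (mitosis) and -0.67 to -0.19 (all members).

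Signs changed as follows. Ttk between the tumor populations was -0.20 with normexp background. In YFP+ cells the tissue difference of Ccnd3 was -0.0507 with quantile normalization, -0.0553 in the deposited values, -0.0139 with array weights and -0.14 to 0.15 with arrays left out. That of Pcna was -0.0321 with array weights and -0.10 to 0.28 with arrays left out. In YFP- cells E2f1 was -0.000304 with the slide as a block and -0.00518 to 0.19 with arrays left out. The Cdkn1a interaction was 0.27 by the mean of probes.

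With the mouse number as a replicate block, 9 and 20 tissue calls were made, as many as without it. Same-number arrays deviated together with a correlation from -0.29 to 0.31, and not every number was over 0.1, so the numbers were not taken to pair the arrays.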
